A study of Homo sapiens with 12 samples.

Results

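Enzymes that make serine, one-carbon units, arginine, asparagine and cysteine were followed through siRNA knockdowns in a human keratinocyte line. The 10 genes were taken by name from a count table of 58735 genes: PHGDH, PSAT1 and PSPH, SHMT2, MTHFD2 and ALDH1L2, ASS1 and ASNS, CBS and CTH. All 10 passed the filter on low counts. The study sequenced messenger RNA of N/TERT-2G, a line of immortalised skin keratinocytes, as part of work on vulvar lichen sclerosus, a chronic inflammatory skin disease. There were 12 libraries in 4 groups of 3. Every group received siRNA at 100 pmol for each well of a 6-well plate, delivered with 5 µl of a lipid reagent, and fresh medium after 6 h. The siRNA was a negative control or was directed at ATF3 (a stress-induced transcription factor), at APOE (the lipid carrier apolipoprotein E) or at CXCL14 (a chemokine made by epithelia). The siRNA sequences, and how long after transfection RNA was taken, are not described. All values come from 1 cell line, and the labels do not say whether the 3 libraries of a group were separate cultures, so p-values reflect only how these libraries scatter, which may be technical.

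Cells make serine from the glycolytic intermediate 3-phosphoglycerate in 3 steps: PHGDH oxidises it, PSAT1 transfers an amino group from glutamate, and PSPH removes the phosphate. In mitochondria SHMT2 splits serine into glycine and a one-carbon unit carried by folate, MTHFD2 oxidises that unit, and ALDH1L2 oxidises formyl-folate to carbon dioxide with gain of NADPH. ASS1 joins citrulline and aspartate on the way to arginine, and ASNS makes asparagine from aspartate and glutamine. CBS condenses serine with homocysteine, and CTH cleaves the product to cysteine, which together form the transsulfuration route. Many of these genes are known targets of ATF4, the transcription factor of the integrated stress response, whose binding sites hold a motif known as CARE. ATF3 is a relative of ATF4 and one of its known targets.

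Genes can be compared with each other only per length, for which the deposited FPKM (fragments per kilobase of gene, scaled to library size) were used. In control cells PSAT1 had the highest level, 53.6 ± 5.31 FPKM (SD, n = 3), which lay above 95.6% of the 15497 protein-coding genes with a level above 0. SHMT2 followed at 40.4 ± 0.74 FPKM and MTHFD2 at 26.3 ± 1.91. PHGDH (12.2 ± 0.138), PSPH (9.95 ± 0.754) and ASS1 (5.91 ± 0.483) formed the middle of the order. CTH (3.96 ± 0.456) and CBS (3.53 ± 0.829) were the only neighbours in the control order whose ranges overlapped. ALDH1L2 (0.735 ± 0.0178) and ASNS (0.482 ± 0.101) were lowest, above 31.9% and 28.9% of these genes. In FPKM, PSAT1, SHMT2 and MTHFD2 were thus among the abundant messages of this line, and ASNS was a scarce one. This order depends on the gene lengths used, which equal the annotated exon length: 2188 bases for PSAT1, 4838 for SHMT2 and 9217 for PHGDH. These need not be the lengths of the messages present in these cells. In counts scaled to library size (CPM), without length, control means were 198 for SHMT2, 130 for MTHFD2, 119 for PSAT1 and 114 for PHGDH. ASNS was again lowest, at 2.18 CPM.

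The order in FPKM shifted with each siRNA, and each crossing below depends on the lengths used. With ATF3 siRNA, ASS1 reached 20.1 ± 1.42 FPKM and stood above PHGDH, with its lowest library at 18.9 and the highest PHGDH library at 18.7. With CXCL14 siRNA, PSPH stood above MTHFD2, its lowest library at 19.4 and the highest MTHFD2 library at 18.7. With APOE siRNA, ALDH1L2 fell below ASNS, its highest library at 0.527 and the lowest ASNS library at 0.587. PSAT1 and SHMT2 held the top of the order in FPKM in all 4 groups, without overlap between them.

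**Figure D1:**
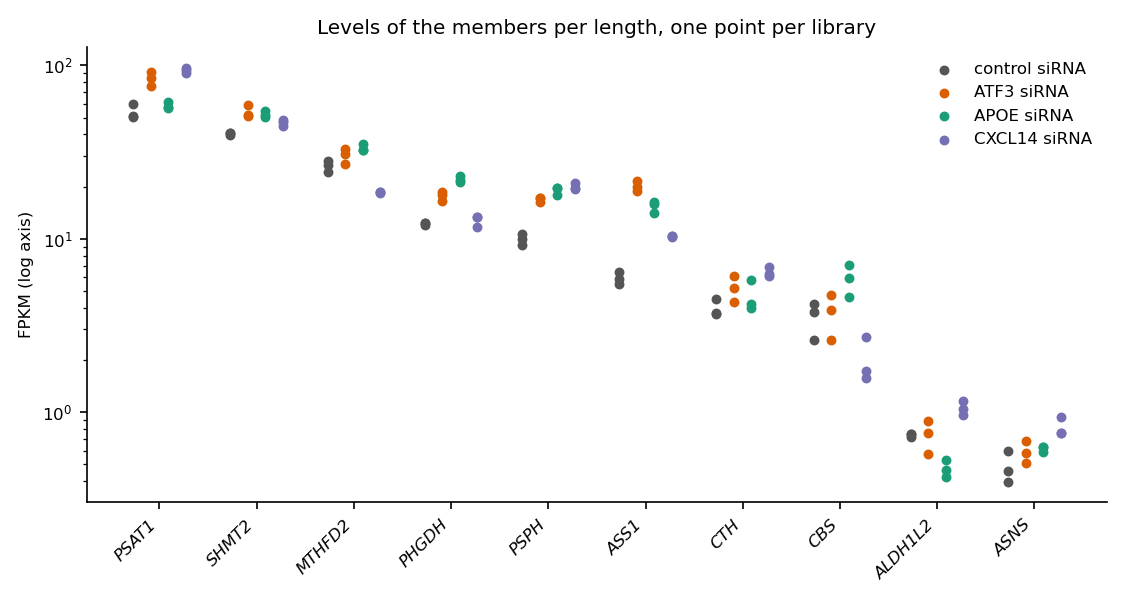
Level per length of the 10 enzymes in FPKM on a log axis, by siRNA group, with 1 point per library (n = 3 per group). PSAT1 and SHMT2 are highest in every group, ALDH1L2 and ASNS lowest, and ASS1 moves from 5.91 FPKM in control cells to 20.1 FPKM with ATF3 siRNA.

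Total counts ran from 16225691 to 22246755 per library, so that 3 counts, taken as the limit for a count of 0, equal 0.135 to 0.185 CPM (counts scaled to library size). The targeted genes were checked first. Control libraries held ATF3 at 43.0, 43.0 and 40.5 CPM, and those with its siRNA at 12.02, 12.5 and 11.5, a log2 difference of -1.81 ± 0.08. APOE differed by -4.02 ± 0.35 with its siRNA. CXCL14 was near the floor in control cells, with 7, 6 and 11 counts (0.365 to 0.682 CPM), and had 1, 1 and 0 counts with its siRNA. The summed counts, 2 against 24, gave a ratio of 0.0719 per sequenced count (exact 95% interval 0.00823 to 0.289, counting error only). CXCL14 was called lower (edgeR adjusted p = 0.0143, and 0.0538 with limma-voom). Without control replicate 3 this p was 0.0523, and without CXCL14 siRNA replicate 3 it was 0.0579. The targets also moved with each other's siRNAs: ATF3 rose by 0.70 ± 0.07 with CXCL14 siRNA, and CXCL14 rose by 4.11 ± 0.48 with APOE siRNA. Among 12 keratinocyte markers, the summed level was 36753 to 39100 CPM in control libraries, 36721 to 39817 with ATF3 siRNA, 44863 to 47752 with APOE siRNA and 24535 to 25705 with CXCL14 siRNA. KRT5 and KRT14 had the highest means, and single markers moved both ways. Mean KRT5 was 11763 CPM in control and 17953 with APOE siRNA, and COL17A1 3725 and 2487. Mean KRT14 was 7297 CPM in control and 3574 with CXCL14 siRNA, and DSG3 363 and 482. Of these 12, 6 were called with ATF3 siRNA and 10 each with APOE and CXCL14 siRNA. The 8 fibroblast markers summed to 25.4 to 34.2 CPM in control libraries, 32.6 to 40.8 with ATF3 siRNA, 74.3 to 87.9 with APOE siRNA and 14.6 to 17.8 with CXCL14 siRNA. Nearly all of this was COL1A1 (means 28.8, 35.5, 80.4 and 15.2 CPM), and DPT was at 0 in all libraries. Of the 2 fibroblast markers that could be tested, 0 were called with ATF3 siRNA and 2 each with APOE and CXCL14 siRNA. Single fibroblast markers moved both ways with CXCL14 siRNA: mean COL1A1 was lower than in control, while mean DCN was 0.638 CPM beside 0.102 in control. Melanocyte markers summed to at most 2.74 CPM with TYR at 0, immune markers to at most 0.599 with PTPRC, CD3E and LYZ at 0, and endothelial markers to at most 1.76.

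Against control siRNA, 5 to 7 of the 10 enzymes rose. Differences were taken from a single edgeR quasi-likelihood fit of all 12 libraries, scaled by TMM, and a gene was called at a Benjamini-Hochberg adjusted p under 0.05 over 14920 genes. With ATF3 siRNA, 5 of 10 members rose and 0 fell, where 11.2% of all genes tested rose and 9.14% fell. With APOE siRNA, 6 members rose and 1 fell, where 22.3% of all genes rose and 22.5% fell (44.8% called in either direction). With CXCL14 siRNA, 7 rose and 2 fell, where 27.4% rose and 28.4% fell (55.8% in either direction). The members' median log2 differences were 0.42, 0.37 and 0.61, beside medians of 0.00, 0.01 and 0.01 over all genes tested. The 3 comparisons share the 3 control libraries. Of all genes, 20.4% or 3041 were called with ATF3 siRNA, and 1916 without control replicate 1. Scaled by library size alone, the all-gene split with ATF3 siRNA was 1361 higher and 1734 lower in place of 1678 and 1363, while the members again gave 5, 6 and 7 rises and 0, 1 and 2 falls. In bulk RNA, fewer cells that carry a message and less of it per cell cannot be told apart. The summed keratinocyte and fibroblast markers given above lay outside the control range with APOE and CXCL14 siRNA, and their part in these differences was not tested.

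**Figure D2:**
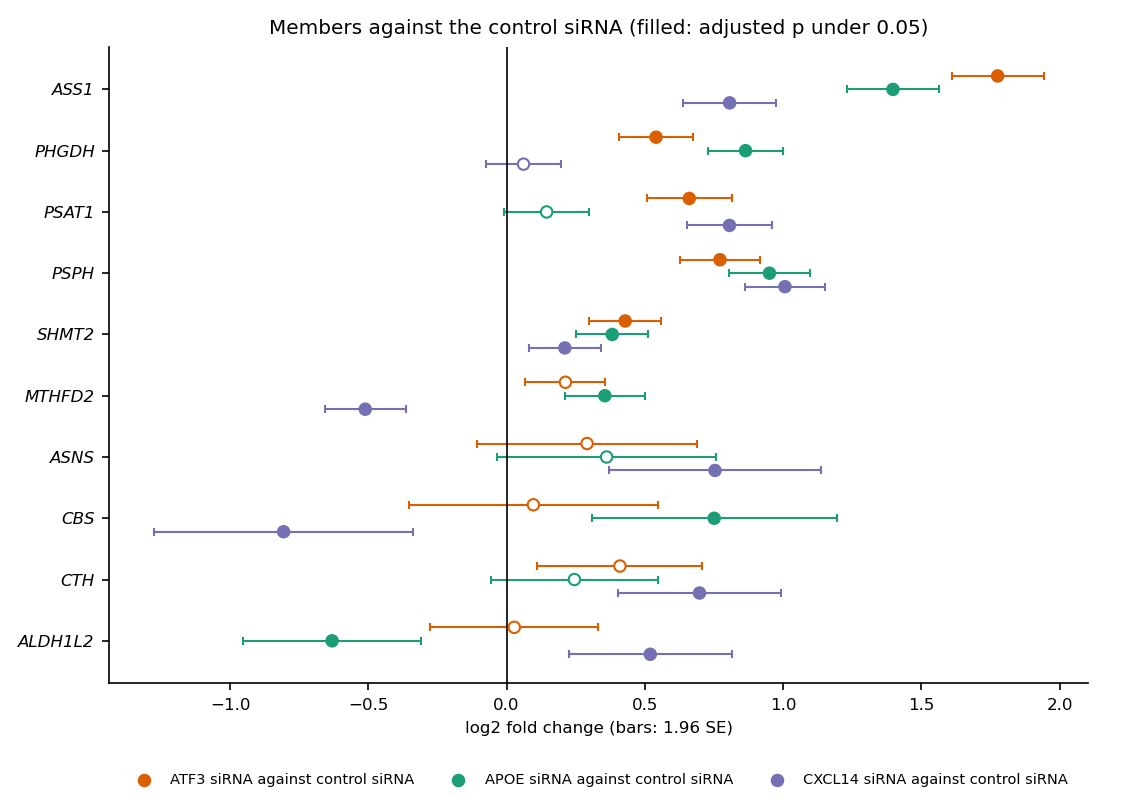
Log2 difference of each enzyme from control siRNA, with 95% intervals from the edgeR fit as bars (n = 3 per group), for ATF3, APOE and CXCL14 siRNA; filled points had an adjusted p under 0.05. ASS1 is highest with ATF3 siRNA (1.78) and APOE siRNA (1.40), while the points of MTHFD2 and CBS lie below 0 with CXCL14 siRNA and that of ALDH1L2 with APOE siRNA.

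The 3 enzymes of serine synthesis rose with ATF3 siRNA, whereas with each of the other siRNAs 1 of the 3 was not called. Of all genes tested, 11.2, 22.3 and 27.4% rose with ATF3, APOE and CXCL14 siRNA. PHGDH, the first enzyme (chr1:119648411-119744226, plus strand, hg38), was at 114, 115 and 113 CPM in control libraries. It was at 175, 156 and 167 CPM with ATF3 siRNA, at 199, 206 and 219 with APOE siRNA and at 108, 124 and 124 with CXCL14 siRNA. Every ATF3 and APOE siRNA library lay above all control libraries, and the CXCL14 siRNA libraries lay on both sides of them. PHGDH rose by 0.54 ± 0.07 with ATF3 siRNA (edgeR adjusted p = 4.85e-05) and by 0.86 ± 0.07 with APOE siRNA (edgeR adjusted p = 5.79e-08). With CXCL14 siRNA the difference was 0.06 ± 0.07 (edgeR adjusted p = 0.472), a ratio of 1.04 with a 95% interval of 0.950 to 1.15.

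PSAT1, the aminotransferase (chr9:78297143-78330093, plus strand), showed the other pattern. Its control libraries were at 132, 111 and 113 CPM. It was at 204, 189 and 170 CPM with ATF3 siRNA, at 129, 127 and 138 with APOE siRNA and at 201, 208 and 214 with CXCL14 siRNA. The APOE siRNA libraries overlapped the control range, and the ATF3 and CXCL14 siRNA libraries lay above it. PSAT1 rose by 0.66 ± 0.08 with ATF3 siRNA (edgeR adjusted p = 2.44e-05) and by 0.81 ± 0.08 with CXCL14 siRNA (edgeR adjusted p = 2.51e-07). With APOE siRNA the difference was 0.14 ± 0.08 (edgeR adjusted p = 0.15), a ratio of 1.11 with an interval of 0.993 to 1.23. Without control replicate 1, the control library with the highest PSAT1, it was 0.23 ± 0.08 with an edgeR adjusted p of 0.0340.

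PSPH, the phosphatase that releases serine (chr7:56011051-56051604, minus strand), was higher with all 3 siRNAs. Control libraries were at 25.7, 29.9 and 27.9 CPM. ATF3 siRNA libraries held it at 46.1, 48.1 and 48.4 CPM, APOE siRNA libraries at 50.2, 55.8 and 55.4, and CXCL14 siRNA libraries at 54.1, 54.9 and 58.8. No siRNA library came within the control range. The rises were 0.95 ± 0.07 with APOE siRNA (edgeR adjusted p = 4.93e-08) and 1.01 ± 0.07 with CXCL14 siRNA (edgeR adjusted p = 9.49e-09), and the smallest of them, with ATF3 siRNA, was 0.77 ± 0.07. PSPH shares 6.10% of its distinct 50-base stretches with other genes, among them the pseudogene PSPHP1, which held 775 counts over the 12 libraries and was not called in any of the 3 comparisons.

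**Figure D3:**
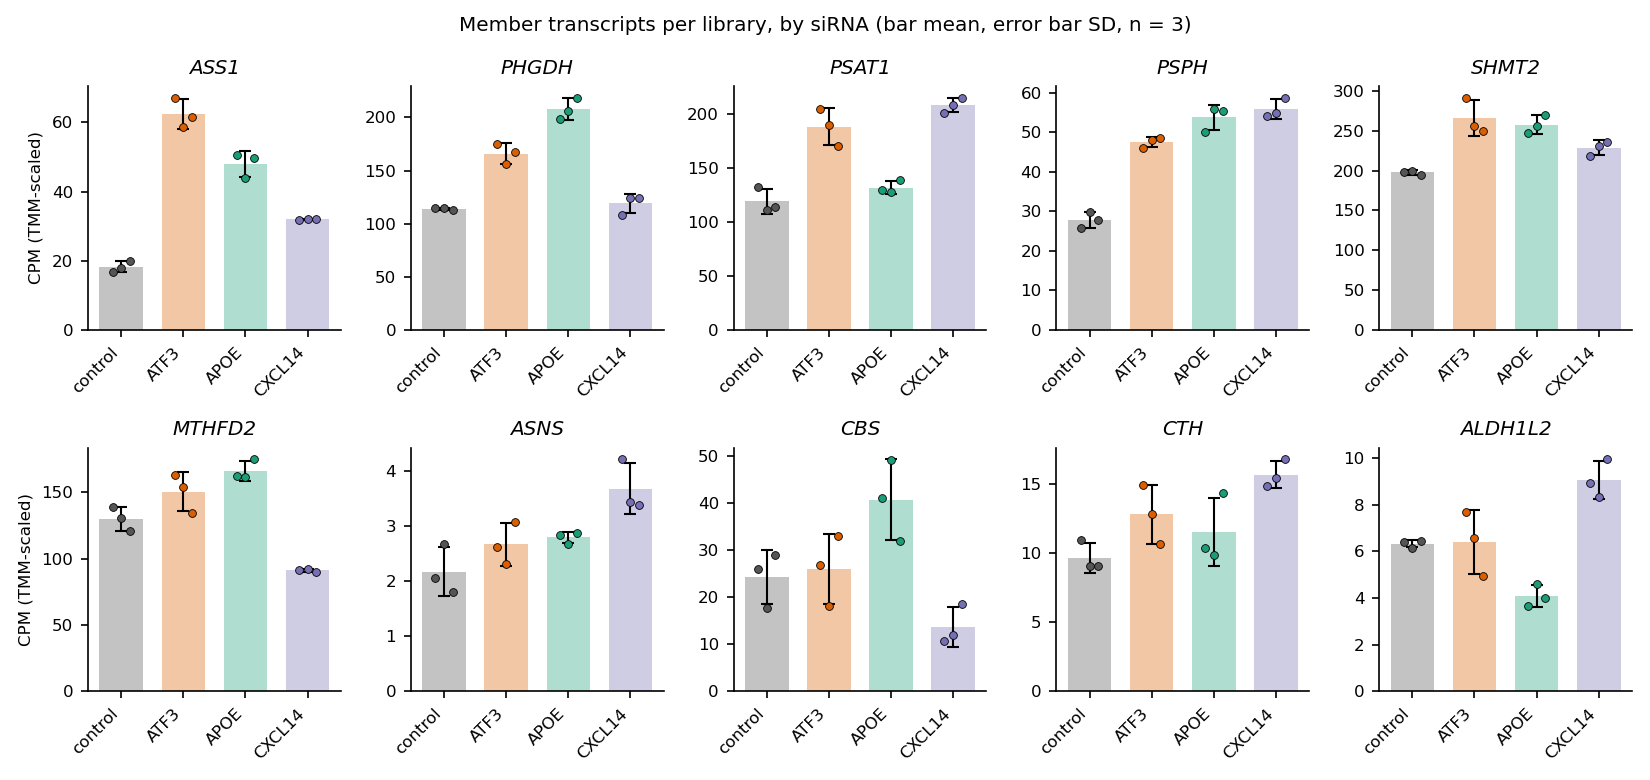
TMM-scaled CPM of each enzyme, with 1 point per library, bars for the mean and error bars for the SD of each group of 3. PHGDH spans the control values with CXCL14 siRNA (108 to 124 CPM beside 113 to 115) and PSAT1 overlaps the control range with APOE siRNA (127 to 138 beside 111 to 132), while all PSPH values with siRNA lie at 46.1 CPM or above.

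Promoter sequence is shown for 4 members whose windows hold motifs of the stress response or of basal promoters. RefSeq windows (GRCh38.p14, 250 bases before to 50 after a start site) were found for 7 of the 10 members. Both strands were searched. The CARE core TGATGNAA was present in a window of 1 member, ASNS, and of 4.46% of the 27305 genes with a window. The E-box CACGTG was present in 1, ASS1, and in 8.77% of genes. Neither the AP-1 motif TGANTCA (9.37% of genes) nor the CRE TGACGTCA (2.25%) was present in a window of these 7 members. CCAAT was present in 5 of 7 members and 39.7% of genes, and the GC box GGGCGG in 5 of 7 and 48.3%. A match describes letters in a window and is no measured binding site. In the stretches below the capitals mark CCAAT in PSAT1 and PHGDH, CACGTG and GGGCGG in ASS1 and TGATGNAA in ASNS.
PSAT1, chr9:78297005-78297124, plus strand: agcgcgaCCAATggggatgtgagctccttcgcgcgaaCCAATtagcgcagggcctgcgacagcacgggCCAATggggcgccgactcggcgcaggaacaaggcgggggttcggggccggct
PHGDH, chr1:119711851-119711880, plus strand: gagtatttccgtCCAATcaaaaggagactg
ASS1, chr9:130444841-130444928, plus strand: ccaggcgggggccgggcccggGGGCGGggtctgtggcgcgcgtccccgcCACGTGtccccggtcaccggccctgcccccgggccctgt
ASNS, chr7:97872458-97872487, minus strand: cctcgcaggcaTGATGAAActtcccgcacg
PSAT1 holds CCAAT 3 times, at positions -113, -83 and -52 from its start site, and PHGDH once, at -71. The CARE core of ASNS begins at -68 and the E-box of ASS1 at -71.

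The mitochondrial folate enzymes did not move as a block. SHMT2 (chr12:57229327-57234935, plus strand), which splits serine, was at 199, 200 and 195 CPM in control libraries. It was at 292, 257 and 250 CPM with ATF3 siRNA, at 247, 256 and 270 with APOE siRNA and at 219, 231 and 237 with CXCL14 siRNA. All 9 siRNA libraries lay above the control libraries. The rises were small, 0.43 ± 0.07 with ATF3 siRNA (edgeR adjusted p = 0.000291), 0.38 ± 0.07 with APOE siRNA (edgeR adjusted p = 0.000202) and 0.21 ± 0.07 with CXCL14 siRNA (edgeR adjusted p = 0.0129). The last was not called without CXCL14 siRNA replicate 3 (edgeR adjusted p = 0.0521).

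MTHFD2 (chr2:74198562-74217565, plus strand), the next enzyme in the route, moved in opposite directions. It was at 139, 130 and 121 CPM in control libraries, at 163, 154 and 135 with ATF3 siRNA and at 162, 162 and 175 with APOE siRNA. With CXCL14 siRNA it was at 91.4, 92.3 and 89.8 CPM, below every other library. MTHFD2 rose by 0.36 ± 0.07 with APOE siRNA (edgeR adjusted p = 0.000963) and fell by 0.51 ± 0.07 on the log2 scale with CXCL14 siRNA (edgeR adjusted p = 2.24e-05). With ATF3 siRNA the ranges overlapped and the difference of 0.21 ± 0.07 had an edgeR adjusted p of 0.0522. That p was 0.0109 without ATF3 siRNA replicate 3 and 0.0460 without control replicate 1. MTHFD2 was also called with ATF3 siRNA when replicate number was added to the fit. Of the MTHFD2 exon bases, 33.2% overlap exons on the other strand, 27.2% those of SLC4A5, which held 1 to 12 counts per library. No source used here says whether counting used the strand, so reads of the overlap cannot be told apart.

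ALDH1L2 (chr12:105019784-105084577, minus strand), which takes the one-carbon unit to carbon dioxide, was at 6.41, 6.14 and 6.45 CPM in control libraries. It was at 7.69, 6.58 and 4.96 CPM with ATF3 siRNA, on both sides of the control values. It was at 3.64, 4.60 and 4.02 CPM with APOE siRNA, below all control libraries, and at 8.91, 8.34 and 9.95 with CXCL14 siRNA, above them. ALDH1L2 fell by 0.63 ± 0.16 on the log2 scale with APOE siRNA (edgeR adjusted p = 0.00515) and rose by 0.52 ± 0.15 with CXCL14 siRNA (edgeR adjusted p = 0.00774). The difference with ATF3 siRNA was 0.03 ± 0.16 (edgeR adjusted p = 0.927), a ratio of 1.02 with an interval of 0.826 to 1.26. In both comparisons in which MTHFD2 was called, ALDH1L2 was called in the opposite direction: with APOE siRNA MTHFD2 was higher and ALDH1L2 lower, and with CXCL14 siRNA the reverse.

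ASS1, the argininosuccinate synthase (chr9:130444929-130501274, plus strand), had the highest rise of the 10 members with ATF3 siRNA and with APOE siRNA. It was at 16.9, 17.9 and 20.0 CPM in control libraries. It was at 67.2, 58.6 and 61.6 CPM with ATF3 siRNA, at 50.6, 43.8 and 49.8 with APOE siRNA and at 31.7, 32.04 and 32.06 with CXCL14 siRNA. The 4 groups did not overlap. ASS1 rose by 1.78 ± 0.08 with ATF3 siRNA (edgeR adjusted p = 2.50e-09), a ratio of 3.42 with an interval of 3.05 to 3.84. It rose by 1.40 ± 0.09 with APOE siRNA (edgeR adjusted p = 3.13e-09), a ratio of 2.63, and by 0.81 ± 0.09 with CXCL14 siRNA (edgeR adjusted p = 6.89e-07), a ratio of 1.75. ASS1 shares 5.55% of its 50-base stretches with other genes. Its pseudogene ASS1P12 held 198 counts over all libraries, beside 279 to 1458 for ASS1 in a single library.

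ASL, the enzyme that follows ASS1 and splits argininosuccinate into arginine and fumarate, was not called higher with any of the siRNAs. Its log2 difference was 0.21 ± 0.09 with ATF3 siRNA (edgeR adjusted p = 0.111), and it fell by 0.40 ± 0.09 with APOE siRNA (edgeR adjusted p = 0.00187) and by 0.46 ± 0.09 with CXCL14 siRNA (edgeR adjusted p = 0.000382). ASL was singled out for its place in the route after its values were seen.

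ASNS, the asparagine synthetase (chr7:97852118-97872542, minus strand), stayed low in all groups. It was at 2.06, 2.68 and 1.80 CPM in control libraries, at 2.63, 2.31 and 3.08 with ATF3 siRNA, at 2.85, 2.68 and 2.87 with APOE siRNA and at 4.22, 3.43 and 3.39 with CXCL14 siRNA. Only the 3 CXCL14 siRNA libraries stood clear of all other libraries. ASNS rose by 0.75 ± 0.19 there (edgeR adjusted p = 0.00359). The differences of 0.29 ± 0.20 with ATF3 siRNA (edgeR adjusted p = 0.345) and 0.36 ± 0.20 with APOE siRNA (edgeR adjusted p = 0.162) rested on 29 to 57 counts per library, and their ratios had intervals of 0.929 to 1.61 and 0.976 to 1.69. Moreover, 44.6% of the ASNS exon bases overlap exons of AC079781.5 on the same strand, a gene with 2 to 15 counts per library. No source used here says how reads in such an overlap were assigned, so the ASNS level is uncertain.

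CTH, which releases cysteine (chr1:70411218-70439851, plus strand), was at 10.9, 9.06 and 9.05 CPM in control libraries and at 14.9, 12.9 and 10.6 with ATF3 siRNA. It was at 10.4, 9.86 and 14.4 CPM with APOE siRNA and at 14.9, 15.4 and 16.8 with CXCL14 siRNA. With CXCL14 siRNA all libraries lay above the control range and CTH rose by 0.70 ± 0.15 (edgeR adjusted p = 0.000849). The difference was 0.41 ± 0.15 with ATF3 siRNA (edgeR adjusted p = 0.0692) and 0.25 ± 0.15 with APOE siRNA (edgeR adjusted p = 0.214). The first was called without ATF3 siRNA replicate 3 (edgeR adjusted p = 0.0293), without APOE siRNA replicate 3 (0.0398) and without the filter on low counts (0.0315). That difference was also called when replicate number was added to the fit.

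CBS (chr21:43053191-43076943, minus strand), the first enzyme of transsulfuration, was higher with APOE siRNA. It was at 26.0, 17.8 and 28.9 CPM in control libraries, at 26.8, 18.1 and 33.0 with ATF3 siRNA, at 41.0, 49.2 and 31.97 with APOE siRNA and at 10.8, 11.9 and 18.6 with CXCL14 siRNA. The APOE siRNA libraries lay above the control range, and the ATF3 and CXCL14 siRNA libraries overlapped it. CBS rose by 0.75 ± 0.23 with APOE siRNA (edgeR adjusted p = 0.0128). This call was lost without control replicate 2 (0.57 ± 0.24, edgeR adjusted p = 0.0742) and without APOE siRNA replicate 2 (0.59 ± 0.25, edgeR adjusted p = 0.0725). The difference with ATF3 siRNA was 0.10 ± 0.23 (edgeR adjusted p = 0.812), and with CXCL14 siRNA CBS was called lower by -0.81 ± 0.24 (edgeR adjusted p = 0.00909).

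The CBS call with CXCL14 siRNA was not made when the counts of a near-identical annotated copy were added. CBSL is annotated elsewhere on chromosome 21 of this genome build, and 14 of the 15 CBS coding exons, 95.8% of the coding bases, occur whole in CBSL transcripts. Coding exon 4 of CBS shows this: its 80 bases at chr21:43065616-43065695 occur letter for letter in CBSL at chr21:6457294-6457373 (GENCODE, hg38), and a read from within it fits both genes.
CBS coding exon 4, coding strand: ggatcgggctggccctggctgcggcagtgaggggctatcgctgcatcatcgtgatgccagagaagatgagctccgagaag
In 10 of the 12 libraries CBSL held 2.71 to 12.6% of the summed counts of both genes. In CXCL14 siRNA replicate 2 it held 61.2% (345 of 564 counts, exact 95% interval 57.0 to 65.2, counting error only), and in replicate 3 28.7% (166 of 578, 25.1 to 32.6). In CXCL14 siRNA replicate 1 it held 3.77% (8 of 212), and there CBS alone, at 10.8 CPM, lay below every control library. The cause of the unequal shares was not tested. The counts given to CBSL were called higher with CXCL14 siRNA, by 2.85 ± 0.76 (edgeR adjusted p = 0.00450), with overlapping groups. They stood at 0.422, 18.8 and 7.505 CPM there, beside 1.21, 1.64 and 0.806 in control libraries, so replicate 1 lay below all of these. With both genes summed the CXCL14 siRNA libraries were at 11.2, 30.7 and 26.1 CPM, beside 27.2, 19.5 and 29.7 in control libraries, so that replicate 1 lay below the control range and replicate 2 above it. The summed difference was -0.17 ± 0.28 (edgeR adjusted p = 0.643), so the fall of CBS was not called for the pair. With APOE siRNA the pair rose by 0.76 ± 0.28 (edgeR adjusted p = 0.0346), and with ATF3 siRNA it differed by 0.16 ± 0.28 (edgeR adjusted p = 0.732). No source used here says how reads that fit both copies were assigned, and CBS values are uncertain for this reason.

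**Figure D4:**
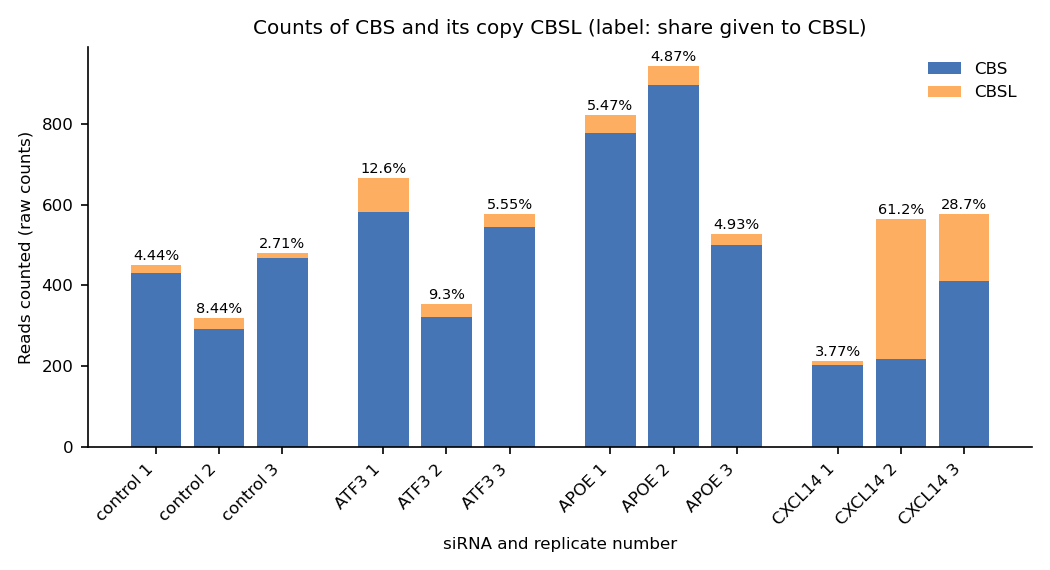
Raw counts of CBS and, stacked on them, CBSL in each library, with the CBSL share of their sum above each bar. CBSL takes 61.2% and 28.7% in CXCL14 siRNA replicates 2 and 3 and at most 12.6% in the other 10 libraries.

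The siRNA groups were also compared with each other, without the control libraries in the contrast. Between ATF3 and APOE siRNA, 3 members were higher with ATF3 siRNA and 2 lower, where 20.3% and 17.9% of all genes were (38.2% in either direction). PSAT1 was higher with ATF3 siRNA by 0.52 ± 0.08 (edgeR adjusted p = 6.78e-05), ALDH1L2 by 0.66 ± 0.16 (edgeR adjusted p = 0.00404) and ASS1 by 0.38 ± 0.08 (edgeR adjusted p = 0.00111). PHGDH was lower by -0.32 ± 0.07 (edgeR adjusted p = 0.00124). The messages of the first and second enzymes of the serine route thus differed between these knockdowns in opposite directions. CBS was lower by -0.65 ± 0.22 (edgeR adjusted p = 0.0294), with overlapping groups, a call that was lost in 8 of 23 alternatives, among them the sum with CBSL (edgeR adjusted p = 0.0977). Leaving out ATF3 siRNA replicate 1 or 2 or APOE siRNA replicate 1 or 2 also ended it, with edgeR adjusted p values of 0.0513, 0.147, 0.0604 and 0.141. PSPH, at -0.18 ± 0.07, was not called (edgeR adjusted p = 0.0606), but was without APOE siRNA replicate 1 (edgeR adjusted p = 0.0360). PSPH was also called with a stricter filter on low counts, and when replicate number was added to the fit. SHMT2 (0.05 ± 0.07), MTHFD2 (-0.14 ± 0.07), ASNS (-0.07 ± 0.19) and CTH (0.16 ± 0.15) were not called.

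Between ATF3 and CXCL14 siRNA, 5 members were higher with ATF3 siRNA and 3 lower, where 28.4% and 25.3% of all genes were (53.7% in either direction). ASS1 was higher by 0.97 ± 0.08 (edgeR adjusted p = 3.89e-08), MTHFD2 by 0.72 ± 0.07 (edgeR adjusted p = 4.96e-07) and PHGDH by 0.48 ± 0.07 (edgeR adjusted p = 1.94e-05). PSAT1, at -0.15 ± 0.08 (edgeR adjusted p = 0.126), and CTH, at -0.29 ± 0.14 (edgeR adjusted p = 0.105), were not called, but both were without ATF3 siRNA replicate 1 (edgeR adjusted p = 0.0381 and 0.0319). CBS was higher by 0.90 ± 0.24 (edgeR adjusted p = 0.00419), and by 0.33 ± 0.28 when summed with CBSL (edgeR adjusted p = 0.338). Smaller differences depended on single libraries: 5 rather than 8 members were called without CXCL14 siRNA replicate 3. PSPH (-0.23 ± 0.07, edgeR adjusted p = 0.0110) then had a p of 0.0529 and ALDH1L2 (-0.49 ± 0.15, edgeR adjusted p = 0.0103) one of 0.0505, and ALDH1L2 was also not called without ATF3 siRNA replicate 3 (0.0551). SHMT2 (0.22 ± 0.07, edgeR adjusted p = 0.0107) was not called without ATF3 siRNA replicate 1 (0.0792). ASNS (-0.46 ± 0.19, edgeR adjusted p = 0.0467) was not called in 13 of 23 alternatives, with p up to 0.173; these included leaving out any ATF3 siRNA replicate other than 3, any APOE or CXCL14 siRNA replicate, or control replicate 1.

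Between APOE and CXCL14 siRNA, 5 members were higher with APOE siRNA and 3 lower, where 28.9% and 26.6% of all genes were (55.5% in either direction). Scaling by library size alone moved the median of all genes by -0.12 here and by -0.10 between ATF3 and CXCL14 siRNA. It turned the split of members to 4 higher and 5 lower in both comparisons, and that of all genes to 3379 and 5148 here and to 3477 and 4897 there. MTHFD2 was higher with APOE siRNA by 0.87 ± 0.07 (edgeR adjusted p = 5.58e-08), PHGDH by 0.80 ± 0.07 (edgeR adjusted p = 5.21e-08) and ASS1 by 0.59 ± 0.08 (edgeR adjusted p = 1.04e-05). ALDH1L2 was lower by -1.15 ± 0.16 (edgeR adjusted p = 1.06e-05) and PSAT1 by -0.66 ± 0.08 (edgeR adjusted p = 2.20e-06). The messages of PHGDH and PSAT1, consecutive enzymes, thus lay on opposite sides here too, with the same APOE siRNA libraries in both comparisons. CBS was higher by 1.56 ± 0.23 (edgeR adjusted p = 2.90e-05), and by 0.92 ± 0.27 when summed with CBSL (edgeR adjusted p = 0.00916). SHMT2 was higher by 0.17 ± 0.07 (edgeR adjusted p = 0.0370), a call lost in 10 of 23 alternatives, including each fit without APOE siRNA replicate 2 or 3, CXCL14 siRNA replicate 1 or 2 or control replicate 3 (edgeR adjusted p from 0.0564 to 0.134). CTH was lower by -0.45 ± 0.15 (edgeR adjusted p = 0.0152) and was not called without APOE siRNA replicate 1 (0.0666), APOE siRNA replicate 2 (0.0853) or CXCL14 siRNA replicate 3 (0.0578). PSPH (-0.06 ± 0.07) and ASNS (-0.39 ± 0.19) were not called, and the interval of the PSPH ratio was 0.873 to 1.06.

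The genes around these routes were followed in 6 lists. In the list of folate, glycine and one-carbon units, 1 of 19 genes tested rose and 1 fell with ATF3 siRNA, 1 rose and 5 fell with APOE siRNA, and 4 rose and 7 fell with CXCL14 siRNA. The medians were 0.03, -0.08 and -0.17, beside 0.42, 0.37 and 0.61 for the 10 enzymes. The called shares, 10.5, 31.6 and 57.9%, stand beside 20.4, 44.8 and 55.8% of all genes. MTHFD2L, a relative of MTHFD2, fell by 0.61 ± 0.14, 0.43 ± 0.14 and 1.45 ± 0.15 with ATF3, APOE and CXCL14 siRNA. MTHFD1, the cytosolic counterpart, fell by 0.41 ± 0.07 with APOE siRNA, where the folate carrier SLC19A1 rose by 0.68 ± 0.10 and GCSH, of the glycine cleavage system, fell by 1.39 ± 0.25. With CXCL14 siRNA SLC19A1 fell by 0.45 ± 0.10 and MTHFD1 by 0.21 ± 0.07.

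Of 25 genes tested of the methionine cycle, sulfur and glutathione, 7 rose and 5 fell with ATF3 siRNA, 7 rose and 8 fell with APOE siRNA, and 8 rose and 13 fell with CXCL14 siRNA (medians 0.00, 0.03 and -0.18). That is 48, 60 and 84% called, beside 20.4, 44.8 and 55.8% of all genes. SQOR, which oxidises hydrogen sulfide, fell by 0.39 ± 0.07, 0.94 ± 0.08 and 1.39 ± 0.08 with ATF3, APOE and CXCL14 siRNA. CHAC1, which degrades glutathione, rose by 0.54 ± 0.08, 0.94 ± 0.08 and 0.95 ± 0.08. MTR, the methionine synthase that uses methyl-folate, fell by 0.49 ± 0.09 with APOE siRNA and by 1.39 ± 0.10 with CXCL14 siRNA. APIP, of the methionine salvage route, fell from 5.74 ± 0.844 CPM to 0.555 ± 0.125 CPM (SD, n = 3) with CXCL14 siRNA, a log2 difference of -3.35 ± 0.24. GCLC, the catalytic subunit of the first enzyme of glutathione synthesis, rose by 0.74 ± 0.06 with APOE siRNA and 0.20 ± 0.06 with ATF3 siRNA and fell by 0.18 ± 0.06 with CXCL14 siRNA.

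Of 29 genes tested of arginine, urea cycle, asparagine, proline and glutamine metabolism, 5 rose and 9 fell with ATF3 siRNA, 5 rose and 8 fell with APOE siRNA, and 7 rose and 10 fell with CXCL14 siRNA (medians 0.08, -0.01 and -0.11). Of this list 48.3, 44.8 and 58.6% were called, beside 20.4, 44.8 and 55.8% of all genes. PYCR1, the mitochondrial enzyme that completes proline, rose by 0.83 ± 0.08, 0.76 ± 0.08 and 0.58 ± 0.08 with ATF3, APOE and CXCL14 siRNA. SRM, which makes spermidine, fell by 1.22 ± 0.12 with ATF3 siRNA. ODC1, the first enzyme of polyamine synthesis, fell by 0.55 ± 0.09, 0.98 ± 0.09 and 0.51 ± 0.09 with ATF3, APOE and CXCL14 siRNA. DDAH1, which degrades methylated arginine, fell by 1.18 ± 0.13 and 1.20 ± 0.13 with ATF3 and APOE siRNA and rose by 0.52 ± 0.11 with CXCL14 siRNA. With CXCL14 siRNA the proline-degrading ALDH4A1 rose by 1.19 ± 0.08 and PYCR3, of proline synthesis, fell by 1.29 ± 0.11. ALDH4A1 also rose by 0.43 ± 0.08 with ATF3 siRNA.

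Purine and pyrimidine synthesis, which uses the one-carbon units, had 19 genes tested. With ATF3 siRNA 6 rose and 2 fell, with APOE siRNA 6 rose and 6 fell, and with CXCL14 siRNA 2 rose and 11 fell (medians 0.02, -0.01 and -0.25). These are 42.1, 63.2 and 68.4% of the list, beside 20.4, 44.8 and 55.8% of all genes. The ATF3 siRNA count of 8 was 5 without control replicate 3, and 5 without ATF3 siRNA replicate 2. PAICS fell by 0.87 ± 0.07 with ATF3 siRNA and by 0.74 ± 0.07 with CXCL14 siRNA, and GMPS by 0.95 ± 0.06 with CXCL14 siRNA. IMPDH2, of guanine nucleotide synthesis, rose by 0.41 ± 0.06 with ATF3 siRNA and 0.36 ± 0.06 with APOE siRNA and fell by 0.32 ± 0.06 with CXCL14 siRNA.

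Of 23 tested regulators and stress genes of the ATF4 pathway, 9 rose and 4 fell with ATF3 siRNA, 12 rose and 5 fell with APOE siRNA, and 8 rose and 3 fell with CXCL14 siRNA (medians 0.16, 0.23 and 0.02). The share called was 56.5, 73.9 and 47.8%, beside 20.4, 44.8 and 55.8% of all genes. The ATF3 siRNA count of 13 was 8 without control replicate 1, without control replicate 2 or without ATF3 siRNA replicate 2. NUPR1, a small stress-induced nuclear protein, rose by 1.22 ± 0.11, 2.82 ± 0.11 and 3.09 ± 0.10 with ATF3, APOE and CXCL14 siRNA. STC2, also of this list, rose by 1.265 ± 0.08, 1.00 ± 0.08 and 1.29 ± 0.08. TRIB3, an ATF4 target that inhibits ATF4, rose by 0.62 ± 0.08 with ATF3 siRNA and 0.72 ± 0.08 with APOE siRNA. DDIT3, a stress transcription factor, rose by 0.95 ± 0.13 and 1.24 ± 0.13 with these siRNAs. Neither was called with CXCL14 siRNA (0.06 ± 0.07 and 0.02 ± 0.13). SESN2, a sensor of amino acid shortage, rose by 0.28 ± 0.08, 1.30 ± 0.08 and 0.64 ± 0.08 with ATF3, APOE and CXCL14 siRNA. The kinase EIF2AK3 rose by 0.79 ± 0.09 with CXCL14 siRNA. EIF2AK3 fell by 0.49 ± 0.09 with APOE siRNA and by 0.29 ± 0.09 with ATF3 siRNA. The message of ATF4 itself, named after its values were seen, rose by 0.24 ± 0.06, 0.35 ± 0.06 and 0.15 ± 0.06 with ATF3, APOE and CXCL14 siRNA (edgeR adjusted p = 0.00921, 0.000129 and 0.0328).

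Of the 14 carriers of serine, arginine, cystine and asparagine, 6 rose and 1 fell with ATF3 siRNA, 5 rose and 3 fell with APOE siRNA, and 4 rose and 6 fell with CXCL14 siRNA (medians 0.23, 0.12 and -0.25). Carriers called made up 50, 57.1 and 71.4%, beside 20.4, 44.8 and 55.8% of all genes. The glycine carrier SLC6A9 rose by 0.75 ± 0.08, 1.11 ± 0.08 and 0.45 ± 0.08 with ATF3, APOE and CXCL14 siRNA. SLC7A1, which imports arginine, rose by 0.28 ± 0.06, 0.33 ± 0.06 and 0.57 ± 0.06 with ATF3, APOE and CXCL14 siRNA. SFXN1, which carries serine into mitochondria, fell by 0.64 ± 0.06 and SLC38A2, a carrier of small neutral amino acids, by 0.54 ± 0.07 with CXCL14 siRNA. SFXN1 also fell by 0.26 ± 0.06 with ATF3 siRNA. SLC25A15, the mitochondrial ornithine carrier, fell by 0.85 ± 0.12 with APOE siRNA and 0.91 ± 0.12 with CXCL14 siRNA. The splits of the lists moved with scaling by library size alone. With APOE siRNA they became 4 higher and 8 lower for methionine, sulfur and glutathione, 3 and 10 for arginine and related routes, 9 and 6 for the ATF4 pathway and 4 and 4 for carriers. With ATF3 siRNA they became 4 and 3 for purines and pyrimidines and 5 and 2 for carriers.

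**Figure D5:**
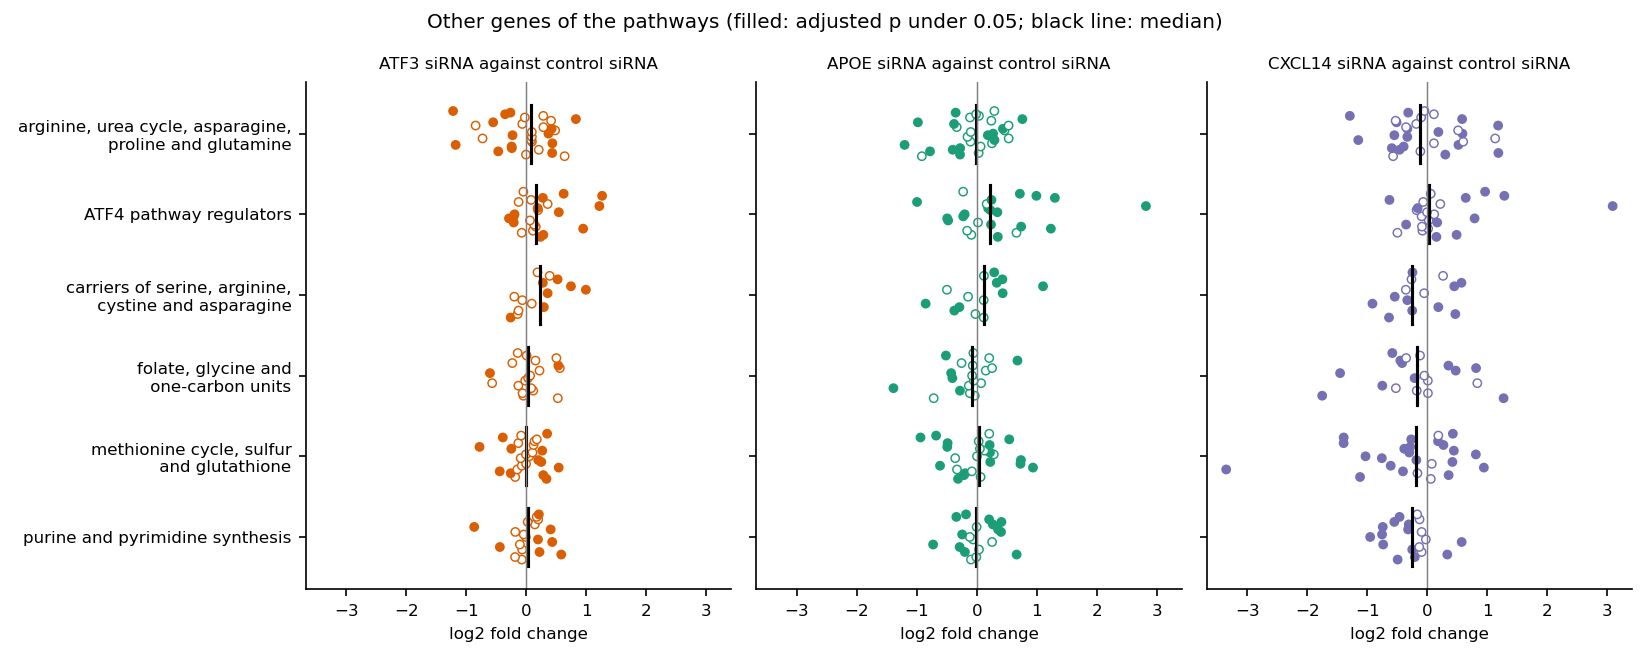
Log2 difference from control siRNA of every gene tested in the 6 lists around the 10 enzymes, by siRNA, with filled points for an adjusted p under 0.05 and a black line at each list's median. With CXCL14 siRNA the medians lie at -0.25 for purine and pyrimidine synthesis and for carriers, and APIP at -3.35 and NUPR1 at 3.09 stand farthest out.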

How the data were processed

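RNA sequencing of 12 N/TERT-2G libraries (4 siRNA groups of 3) was analysed from the tables the authors deposited. Raw counts per gene were deposited by the authors, whose tools, per the submitters' processing notes, were featureCounts 1.5.0-p3 and HISAT2 2.0.5 on build hg38. FPKM were also deposited by the authors. They equal the count divided by gene length and a scaled library size, 0.968 to 1.08 times the total count. The annotation, the strand setting and the handling of reads that fit several genes are not given in the sources used here, and the labels name a directional and a non-directional library. All 58735 gene IDs were found in a GENCODE annotation of this build, 99.98% with equal coordinates. Replicates scattered by 4.32 to 16.4 times the variance of counting alone.

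Counts were filtered with filterByExpr (14920 genes left), scaled by TMM and fitted with glmQLFit and glmQLFTest in edgeR 4.0.16 (R 4.3.3), with 1 term per group and all 12 libraries. The 6 pairs of groups were compared, with Benjamini-Hochberg adjustment over the genes of each comparison and calls at adjusted p under 0.05. The SE is the size of the log2 difference divided by the square root of F, and 95% intervals take the SE as that of a normal spread. After ± stands an SE for a difference and an SD for a level. Alternatives used other scalings and filters, DESeq2 1.42.0, limma 3.58.1 (voom, and log2 of FPKM with pseudocounts of 1 and 0.1), 2 groups at a time, a replicate block, the sum of CBS and CBSL, and each library left out. On simulated counts for ATF3 siRNA against control (14634 genes) 57.7% of 97 genes changed by 1.5-fold and 76.8% of 99 changed by 2-fold were recovered. Far fewer genes changed there than the 3041 called in the data, so these rates do not give the power of that comparison. The members and gene lists were chosen with earlier results of these data known. The text names all members, the 3 targets, copies of members and, in each list and comparison with control, genes from the up to 4 called with the smallest adjusted p. ASL and ATF4 were added after their values were seen. Some genes that meet this rule are not reported here.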

Additional observations from a re-analysis of the deposited data

How the results depend on the processing

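Over 23 alternatives and 6 comparisons, the 10 members gave 1380 values, of which 1310 kept direction and call, 44 lost the call, 18 gained it and 8 changed sign. ALDH1L2 with ATF3 siRNA (0.03) was -0.0121 with library size alone and -0.0001 and -0.0096 with limma on log2 FPKM with pseudocounts of 1 and 0.1. Leaving out single libraries, it ran from -0.134 to 0.176, CBS with ATF3 siRNA from -0.104 to 0.298, and ATF3 with APOE siRNA from -0.0612 to 0.038. Between ATF3 and APOE siRNA, SHMT2 ran from -0.0181 to 0.0899 and ASNS from -0.178 to 0.0213. None of these differences was called with all libraries, and the cause was not tested. On log2(FPKM + 1), whose pseudocount understates change of low genes, ALDH1L2 with APOE siRNA was -0.24 in place of -0.63. Leaving out single libraries gave 1916 to 3003 genes called with ATF3 siRNA (3041 with all libraries), and 5 to 8 members called between ATF3 and CXCL14 siRNA (8 with all). Replicate numbers were not taken as pairs in the main fit, as the labels do not tie them to a shared culture or day. Same-numbered libraries deviated together with r from -0.02 to 0.23, over 0.1 in 11 of 18 pairs but not in all. The data do hint at pairing. In 27 of 36 cases a library correlated best with its own number in another group, and 7 of 12 libraries did so in every other group. With a replicate block 7, 7, 9, 6, 7 and 8 members were called in the 6 comparisons, beside 5, 7, 9, 5, 8 and 8 without it; MTHFD2 (adjusted p = 0.0199) and CTH (0.0454) were then called with ATF3 siRNA, PSPH (0.0229) between ATF3 and APOE siRNA, and ASNS (0.0522) was not between ATF3 and CXCL14 siRNA. ASNS had the lowest counts of the members, 29 to 80 per library, and the overlap with AC079781.5 leaves its level uncertain.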
